A study of Mus musculus with 2 samples.

Results

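Chemokine receptors are the surface proteins with which leukocytes read chemokines, the small secreted proteins that direct them through blood, lymphoid organs and vessel walls. This account describes the 9 genes Ccr1, Ccr2, Ccr7, Ccr9, Cxcr3, Cxcr4, Cxcr5, Cxcr6 and Cx3cr1, which were taken by name from a table of 54532 mouse genes. RNA was sequenced from cells sorted as aortic macrophages from male ApoE knockout (ApoE-/-) mice on a C57BL/6J background, labelled as 6 weeks old. The 2 dyslipidemic groups both lack the Apoe gene. The PDR group (phlegm-dampness retention syndrome) received 4 weeks of high-fat feeding. The SKYD group (spleen and kidney Yang deficiency syndrome) was given propylthiouracil, a drug that lowers thyroid hormone, by gavage at 10 mg/kg per day for 4 weeks and then the high-fat diet for 2 weeks. Cells were sorted on F4/80 and CD11b, and the cells of 5 mice were pooled into 1 library in each group. No difference below therefore has a replicate check, no p-value can be given, and syndrome, drug, diet time and age at sampling cannot be told apart.

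Each receptor passes its signal through inhibitory G proteins, and each leukocyte type carries its own set. CCR1, CCR2 and CX3CR1 are best known from monocytes and macrophages, and CCR2 and CX3CR1 are studied in atherosclerosis because they bring monocytes into the vessel wall. CXCR3 and CXCR6 mark activated T cells and NK cells, CXCR5 marks B cells that enter follicles, CCR7 guides T cells, B cells and mature dendritic cells to lymph nodes, and CCR9 is carried by developing T cells in the thymus, plasmacytoid dendritic cells and gut-homing T cells. CXCR4 is carried by most leukocytes and holds immature cells in the bone marrow. In a pool of sorted cells, fewer cells of a type and less RNA per cell cannot be told apart. Both libraries also held reads of B cell and T cell markers, which are given below.

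Both libraries had similar depth, with 23086889 reads on genes in PDR and 25427863 in SKYD, and where a gene had 0 reads its true level may reach that of 3 reads. The deposited unit is FPKM, the reads of a gene scaled to its length and to the size of the library. The comparison is the log2(FPKM + 1) of PDR minus that of SKYD, over genes whose mean FPKM reached 1, and a difference is counted as a call when it is more than 2-fold on this scale. Intervals are 95% confidence intervals from exact limits on the reads and describe counting error alone, so that variation among mice is not in them. The median difference over the 10399 genes tested was -0.0035. The F4/80 gene Adgre1 had 6639 reads in PDR and 7551 in SKYD, and the CD11b gene Itgam had 1043 and 1803. All 11 macrophage markers of the list used had reads in both libraries. Of these 0 passed 2-fold toward PDR and 4 toward SKYD, against 7.38% and 6.91% of all tested genes. The 4 were Cd14, the lipopolysaccharide co-receptor gene (-2.65), and the complement genes C1qc (-1.59), C1qa (-1.50) and C1qb (-1.25). Fcgr1 (0.54) and Csf1r (0.35) were the 2 markers higher in PDR. The list had a median difference of -0.64 and a summed level of 24914 FPKM in PDR and 48202 FPKM in SKYD, or 2697 and 6866 FPKM without Lyz2, and their part in the results below was not tested.

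Together, the 9 receptor genes accounted for 0.121% of PDR reads (95% CI 0.119 to 0.122) and for 0.133% of SKYD reads (95% CI 0.132 to 0.135). All 9 passed the filter on mean FPKM, although Ccr9 reached it only through the SKYD library. Cxcr3, Cxcr5 and Cxcr6 were more than 2-fold higher in PDR, against 7.38% of all tested genes in that direction. Ccr9 was the 1 member more than 2-fold higher in SKYD, against 6.91% of all tested genes. In total 4 of 9 members were more than 2-fold apart, against 14.3% of all tested genes. The same 4 members were also more than 4-fold apart, against 1.87% of all tested genes toward PDR, 2.08% toward SKYD and 3.94% in either direction. Of the 9 members, 6 were higher in PDR and 3 in SKYD, with a median difference of 0.17 and a range from -3.67 to 3.34.

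**Figure D1:**
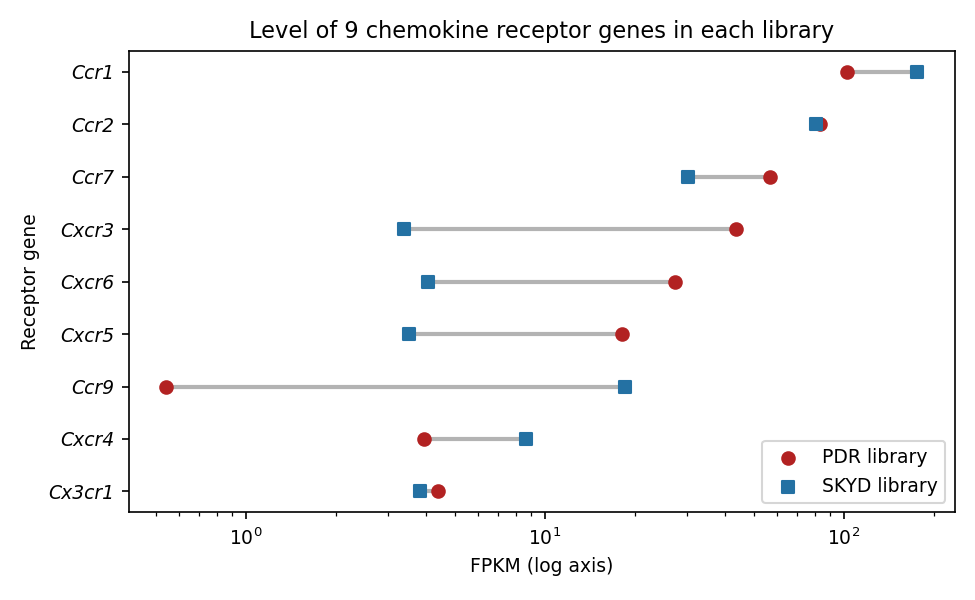
Level of each receptor gene in FPKM (log axis) in the PDR library (circles) and the SKYD library (squares), with 1 pooled library per group and a line joining both values. Ccr1 and Ccr2 lead in both libraries, while Cxcr3, Cxcr6 and Cxcr5 lie further right in PDR and Ccr9 lies further right in SKYD.

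By level on the deposited gene lengths, Ccr1 led in both libraries, with 103 FPKM in PDR and 176 FPKM in SKYD. Ccr2 came next with 83.2 FPKM and 81.1 FPKM on a length of 6760 bases, or 98.2 and 95.7 FPKM on its longest coding transcript. Its shortest coding transcript has 2265 bases, and levels on that length, which would be higher, were not calculated. Ccr7 followed with 56.7 FPKM and 30.1 FPKM. Below Ccr7 the order of the libraries differed. In PDR the levels ran from Cxcr3 (43.7 FPKM) through Cxcr6 (27.2 FPKM), Cxcr5 (18.1 FPKM), Cx3cr1 (4.41 FPKM) and Cxcr4 (3.96 FPKM) to Ccr9 (0.544 FPKM). The counting intervals of Cx3cr1 and Cxcr4 overlapped, and those of all other neighbours in this order did not. In SKYD the order was Ccr9 (18.6 FPKM), Cxcr4 (8.67 FPKM), Cxcr6 (4.08 FPKM), Cx3cr1 (3.83 FPKM), Cxcr5 (3.52 FPKM) and Cxcr3 (3.40 FPKM). The last 4 of these had counting intervals that overlapped from 1 neighbour to the next. Cxcr3 thus held rank 4 of 9 in PDR and rank 9 in SKYD, and Ccr9 held rank 9 in PDR and rank 4 in SKYD.

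Of the summed FPKM of the 9 members, Ccr1 made up 30.2% in PDR and 53.5% in SKYD. The 4 CXC receptors summed to 92.9 FPKM in PDR and 19.7 FPKM in SKYD, and the 4 CC receptors to 243 FPKM and 306 FPKM. The sum of the CXC receptors was higher in PDR although Cxcr4 was lower there.

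The receptors of activated lymphocytes came first among the members higher in PDR. Cxcr3 (ENSMUSG00000050232, minus strand of chromosome X from 101731535 to 101734269 of GRCm38) encodes the receptor for the interferon-induced chemokines CXCL9, CXCL10 and CXCL11. PDR held 1776 reads of this gene and SKYD 147. The difference was 3.34 (95% CI 3.15 to 3.54), and by FPKM Cxcr3 was 12.9-fold higher in PDR (95% CI 10.9 to 15.3). Of all tested genes, 48 (0.462%) were as far or further in that direction. Cxcr6 (ENSMUSG00000048521, plus strand of chromosome 9 from 123806475 to 123811760) encodes the receptor for the membrane-bound chemokine CXCL16 and is carried by tissue-resident T cells and NKT cells. It had 1234 reads in PDR and 197 in SKYD, a difference of 2.47 (95% CI 2.29 to 2.66), which is 6.67-fold by FPKM (95% CI 5.73 to 7.79). Cxcr6 lies inside the span of Fyco1 on the opposite strand, which had 80 and 92 reads, and no exon of Cxcr6 overlaps an exon of another gene in GENCODE M21.

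Cxcr5 (ENSMUSG00000047880, minus strand of chromosome 9 from 44511787 to 44561877) encodes the receptor for CXCL13, which draws B cells into follicles. It had 1415 reads in PDR and 293 in SKYD. The difference was 2.08 (95% CI 1.93 to 2.23), and by FPKM Cxcr5 was 5.14-fold higher in PDR (95% CI 4.53 to 5.85). Of its exon bases, 110 (3.30%) lie opposite exons of Bcl9l, which had 46 reads in PDR and 14 in SKYD. The lowest of the 3 members called in PDR was therefore just past 4-fold on the log2(FPKM + 1) scale, and the lower end of its counting interval was just under it.

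Ccr9 (ENSMUSG00000029530, plus strand of chromosome 9 from 123678439 to 123784330) encodes the receptor for CCL25, the chemokine of thymus and small intestine. PDR held 131 reads of this gene and SKYD 4774. The difference was -3.67 (95% CI -3.76 to -3.57), and by FPKM Ccr9 was 34.2-fold higher in SKYD (95% CI 28.8 to 41.1), the widest gap of any member. Among all tested genes, 36 (0.346%) were as far or further in that direction. The level of Ccr9 per length depends on its gene model. The deposited length of 10260 bases is the union of the exons of 6 annotated transcripts, and it includes an exon that starts 88.8 kb before the RefSeq start. On the longest coding transcript, of 5197 bases, the levels of Ccr9 were 1.07 FPKM in PDR and 36.8 FPKM in SKYD, which puts it above Ccr7 in SKYD. Of its exon bases, 18.8% lie opposite exons of Gm17021 (AC165425.1 in GENCODE M21, ENSMUSG00000091661), a non-coding gene with 0 reads in both libraries, and without stated strand the reads of the 2 genes cannot be told apart there. Gm17200, which shares 269 exon bases with Ccr9 on the same strand, had 3 reads in PDR and 0 in SKYD. In all, 20.1% of the windows of 50 bases in Ccr9 transcripts also occur in transcripts of other genes, the highest share among the members.

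The promoters of Cxcr3 and Cxcr6, which were higher in PDR together, and of Ccr9, the member furthest the other way, are printed from RefSeq (GRCm38.p6), from 250 bases before the annotated start to 50 bases after it. Capitals mark matches on either strand to CAGGTG, an E-box bound by E proteins of lymphocytes, and to TGTGGT, the core of Runx sites. The intervals are chrX:101734098-101734397 (minus strand), chr9:123806227-123806526 (plus strand) and chr9:123766961-123767260 (plus strand).
Cxcr3: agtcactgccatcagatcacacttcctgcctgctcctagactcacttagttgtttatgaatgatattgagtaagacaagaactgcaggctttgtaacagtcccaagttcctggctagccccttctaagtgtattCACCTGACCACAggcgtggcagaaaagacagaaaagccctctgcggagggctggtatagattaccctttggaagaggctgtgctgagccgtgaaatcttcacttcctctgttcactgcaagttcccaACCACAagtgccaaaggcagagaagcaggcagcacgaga
Cxcr6: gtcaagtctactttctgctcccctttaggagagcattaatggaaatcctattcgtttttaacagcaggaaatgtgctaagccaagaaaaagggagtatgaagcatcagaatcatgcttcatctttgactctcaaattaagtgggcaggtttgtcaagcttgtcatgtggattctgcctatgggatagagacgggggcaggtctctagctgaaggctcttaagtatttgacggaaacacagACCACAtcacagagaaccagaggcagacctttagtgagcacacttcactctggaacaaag
Ccr9: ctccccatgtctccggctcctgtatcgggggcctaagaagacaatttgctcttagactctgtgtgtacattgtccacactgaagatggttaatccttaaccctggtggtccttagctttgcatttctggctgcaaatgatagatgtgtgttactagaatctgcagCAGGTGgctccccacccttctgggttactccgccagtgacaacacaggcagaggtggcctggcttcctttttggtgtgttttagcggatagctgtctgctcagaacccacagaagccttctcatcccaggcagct

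In the Cxcr3 promoter the reverse complements of both motifs stand directly side by side, and a second Runx match lies near the start. The RefSeq start of Cxcr3 lies inside the deposited gene, whose first base on the minus strand is 101734269. These matches therefore fall within the deposited gene and not before it. The Cxcr6 promoter had 1 Runx match and the Ccr9 promoter had 1 E-box match. Of the 7 members with a RefSeq promoter, 4 held TGTGGT (Cxcr3, Cxcr6, Ccr1 and Cx3cr1) and 2 held CAGGTG (Cxcr3 and Ccr9). Among 32851 mouse promoters of the same length, 16.8% held TGTGGT and 20.2% held CAGGTG. The T-box motif GGTGTGA, the interferon-stimulated response element (GAAA, any 2 bases, GAAA) and the STAT motif TTCNNNGAA, also searched on both strands, had matches in 0 of the 7 promoters. They occurred in 3.98%, 3.44% and 8.30% of all promoters. Matches of these letters are a description of the windows and not of binding. Ccr7 and Cxcr5 had no entry.

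**Figure D2:**
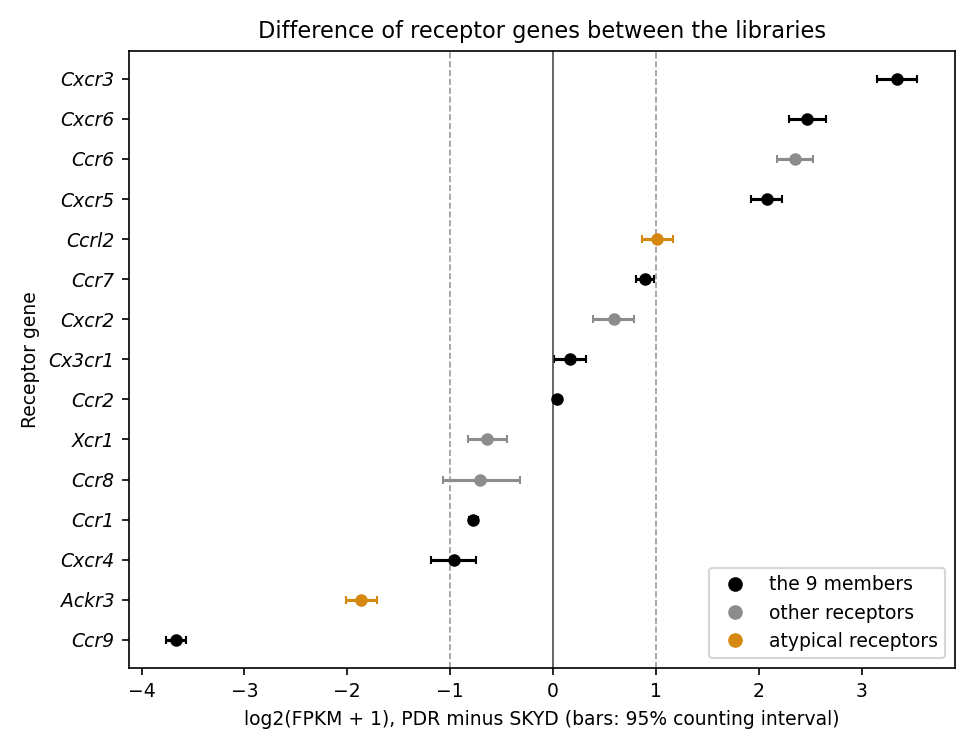
Difference in log2(FPKM + 1), PDR minus SKYD, of the 9 members (black), of other chemokine receptors (grey) and of atypical receptors (orange) whose mean FPKM reached 1. Bars are 95% counting intervals and dashed lines mark 2-fold; Cxcr3 at 3.34 and Ccr9 at -3.67 lie at the ends, and Cxcr4 and Ccr7 lie just inside the lines.

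The remaining 5 members were within 2-fold on this scale. Ccr7 (ENSMUSG00000037944, minus strand of chromosome 11 from 99144196 to 99155077) had 2632 reads in PDR and 1486 in SKYD, a difference of 0.89 (95% CI 0.80 to 0.98). Cxcr4 (ENSMUSG00000045382, minus strand of chromosome 1 from 128588199 to 128592293) had 168 reads in PDR and 392 in SKYD, a difference of -0.97 (95% CI -1.19 to -0.74). Both lay just inside the threshold, and the counting interval of Cxcr4 crossed it. By FPKM without a pseudocount, Cxcr4 was 2.19-fold higher in SKYD (95% CI 1.83 to 2.64) and Ccr7 was 1.88-fold higher in PDR (95% CI 1.77 to 2.01).

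The receptors known from monocytes and macrophages differed least, although in size the counting interval of Ccr1 overlapped those of Ccr7 and Cxcr4. Ccr1 (ENSMUSG00000025804, minus strand of chromosome 9 from 123962124 to 123968692), a receptor for several inflammatory CC chemokines, had 6830 reads in PDR and 12477 in SKYD, a difference of -0.77 (95% CI -0.82 to -0.73). Ccr2 (ENSMUSG00000049103, plus strand of chromosome 9 from 124101950 to 124113557), the receptor with which monocytes leave the bone marrow toward CCL2, had 13216 reads in PDR and 13706 in SKYD. Its difference was 0.04 (95% CI 0.00 to 0.07), and it had the most reads of any member in both libraries. Cx3cr1 (ENSMUSG00000052336, minus strand of chromosome 9 from 119901616 to 120069879), the fractalkine receptor of patrolling monocytes and many resident macrophages, had 467 reads in PDR and 431 in SKYD, a difference of 0.17 (95% CI 0.01 to 0.32). Of the Cx3cr1 exon bases, 78 (1.73%) lie opposite Gm33858, which had 24 reads in PDR and 1 in SKYD. Of all tested genes, 46.5% were as far as Ccr2 or further toward PDR, and 36.1% as far as Cx3cr1. The share of windows of 50 bases that also occur in transcripts of other genes was 1.91% for Ccr2, 1.86% for Cxcr5 and 1.06% for Cx3cr1. Ccr1, Ccr7, Cxcr3, Cxcr4 and Cxcr6 shared 0 such windows.

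Of the 9 members, 6 lie on chromosome 9, and Ccr9, Cxcr6, Ccr1 and Ccr2 lie there in 1 cluster with Xcr1 and Ccr3. Ccr9 and Cxcr6, which are next to each other among the members in this cluster, differed in opposite directions. Cxcr6 starts 128.0 kb from the deposited start of Ccr9, and their differences were 2.47 and -3.67. The other tested genes of the cluster were within 2-fold on the log2(FPKM + 1) scale. Lztfl1, a gene of ciliary transport inside the span of Ccr9, had 469 reads in PDR and 767 in SKYD, a difference of -0.43 (95% CI -0.54 to -0.31). Xcr1, the receptor of cross-presenting dendritic cells, had a difference of -0.64 (95% CI -0.83 to -0.45), which is 2.22-fold by FPKM without the pseudocount (95% CI 1.72 to 2.88).

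**Figure D3:**
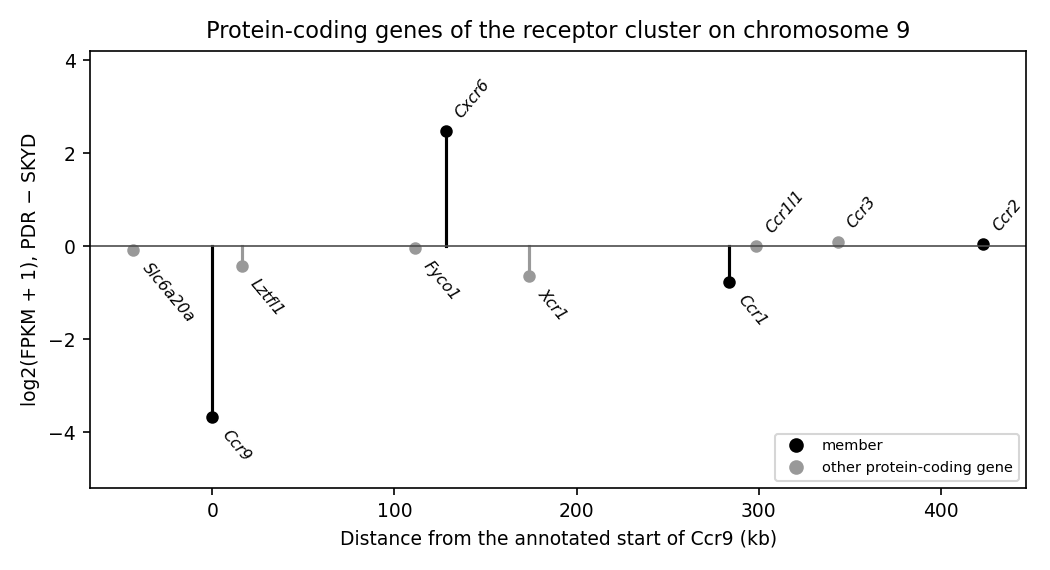
Difference in log2(FPKM + 1), PDR minus SKYD, of protein-coding genes by the distance in kilobases of their start from the deposited start of Ccr9. Ccr9 at -3.67 and Cxcr6 at 2.47 stand out on opposite sides, and every other gene shown lies between -0.77 and 0.09.

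A list of 9 other signalling receptors was compared in the same way. Of these 4 passed the filter on mean FPKM, and 2 of them, Ccr8 and Xcr1, passed it only through SKYD. In this list 1 was more than 2-fold higher in PDR and 0 in SKYD, against 7.38% and 6.91% of all tested genes. The call was that of Ccr6, a receptor for CCL20 on B cells and some T cells, with 1224 reads in PDR and 208 in SKYD, a difference of 2.35 (95% CI 2.18 to 2.53). Cxcr2, the main receptor of neutrophils, had 306 and 191 reads, a difference of 0.59 (95% CI 0.39 to 0.79). Ccr8 had 25 reads in PDR and 62 in SKYD, a difference of -0.71 (95% CI -1.07 to -0.32). Ccr4 was under the filter, with 0 reads in PDR and 87 in SKYD, which by FPKM is at least 27.3-fold higher in the SKYD library. Ccr3 had 48 and 43 reads, Ccr10 had 15 and 22, and Cxcr1 and Ccr1l1 had 0 in both libraries.

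Atypical receptors bind chemokines without G protein signalling. Of 5 such genes 2 were tested, and they differed in opposite directions. Ackr3, which removes CXCL12, the ligand of CXCR4, had 304 reads in PDR and 1399 in SKYD, a difference of -1.86 (95% CI -2.01 to -1.72). Ccrl2 had 871 and 426 reads, a difference of 1.01 (95% CI 0.86 to 1.17), just past the threshold. Ackr1, Ackr2 and Ackr4 had a mean FPKM under 1, with 0, 74 and 51 reads in PDR and 4, 41 and 46 in SKYD.

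The ligands of the members were also measured in these libraries. Of 19 ligand genes in the table, among them 2 copies each of Ccl19 and Ccl21a, 12 were tested. Of these 5 passed 2-fold toward PDR and 3 toward SKYD, against 7.38% and 6.91% of all tested genes. The median difference was 0.17 over the tested ligand genes. It was 0.0 with no filter on FPKM, 0.42 with a mean FPKM of at least 5, and 0.29 when scaled without immunoglobulin and T cell receptor genes. For CXCR3, receptor and ligands were higher in the same library. Cxcl10 had 1338 reads in PDR and 87 in SKYD, a difference of 3.37, and Cxcl9 had 2598 and 505, a difference of 2.29 (95% CI 2.17 to 2.41). Cxcl11 was under the filter with 112 reads in PDR and 4 in SKYD. For CXCR5 the directions were opposite, since its ligand gene Cxcl13 had 153 reads in PDR and 2061 in SKYD, a difference of -3.45 (95% CI -3.66 to -3.24), while Cxcr5 itself was 2.08 higher in PDR. Cxcl16, the ligand of CXCR6, differed less than its receptor, with 1302 and 1772 reads and a difference of -0.34 (95% CI -0.44 to -0.24).

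Ccl6 and Ccl9, which act on CCR1, had the highest levels of the ligand list in both libraries, with 2730 and 445 FPKM in PDR and 5575 and 1415 FPKM in SKYD, and differences of -1.03 and -1.67 in the same direction as Ccr1. Ccl5 (1.69) and Ccl7 (1.60), which also act on CCR1 and of which Ccl7 acts on CCR2 too, were higher in PDR, and Ccl3 had a difference of -0.07 (95% CI -0.24 to 0.10). Ccr2, at 0.04, differed less than its ligand genes Ccl7 and Ccl2, of which Ccl2 had 5307 reads in PDR and 1309 in SKYD, a difference of 2.09, or 4.31-fold by FPKM. Ccl12, another CCR2 ligand, had a difference of 0.42 (95% CI 0.27 to 0.57). Ccl25, the ligand of CCR9, passed the filter only through SKYD and had 145 reads in PDR and 341 in SKYD, a difference of -0.63 (95% CI -0.77 to -0.48). Cxcl12, with 79 and 82 reads, and Cx3cl1, with 16 and 10, were under the filter. The copies of Ccl19 had 0 reads in both libraries, and those of Ccl21a, which are near-identical and cannot be assigned with certainty, had 2 reads in PDR and 7 in SKYD.

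**Figure D4:**
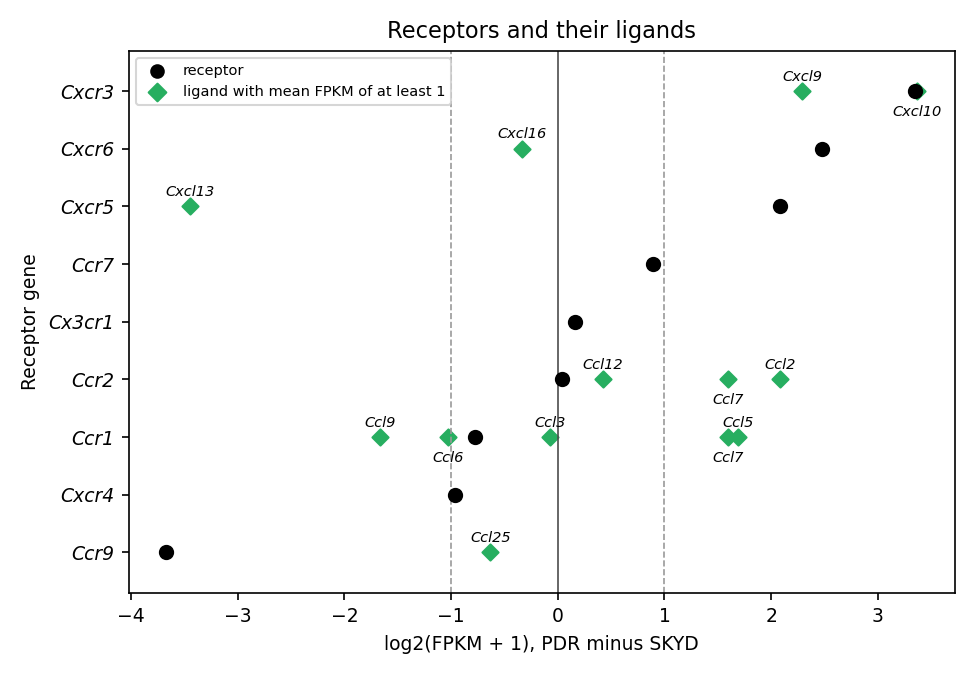
Difference in log2(FPKM + 1), PDR minus SKYD, of each receptor (black circle) and of its ligand genes whose mean FPKM reached 1 (green diamonds), with dashed lines at 2-fold. Cxcr3 lies beside Cxcl10 and Cxcl9 on the PDR side, whereas Cxcr5 at 2.08 and its ligand Cxcl13 at -3.45 lie on opposite sides.

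The shared signalling route was also read. In a list of 32 G protein, arrestin, kinase, RGS and migration genes, 31 were tested, 0 passed 2-fold toward PDR and 3 toward SKYD, against 7.38% and 6.91% of all tested genes, with a median difference of -0.03. The 3 genes were Rgs18, which speeds the shut-off of G proteins (-1.21, 95% CI -1.32 to -1.11), Arrb2, the arrestin that uncouples active receptors (-1.07, 95% CI -1.20 to -0.94), and the receptor kinase gene Grk5 (-1.06, 95% CI -1.26 to -0.86). Other kinase and RGS genes of the list were within 2-fold on either side, with 0.34 for Grk2, 0.27 for Grk6, 0.04 for Rgs2, 0.04 for Rgs14 and -0.57 for Rgs1. The genes of the list with the highest mean FPKM over both libraries, Cdc42, Rap1b and Rac2, which drive cell movement and adhesion, had differences of 0.20, -0.17 and 0.36. Gnai2, the inhibitory G protein through which these receptors act, had a difference of -0.50.

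Markers of the leukocytes that carry the members differed as well, and they are given here beside the receptor values. Beside the marker counts given here and below, 7.38% of all tested genes passed 2-fold toward PDR and 6.91% toward SKYD. For B cells, 7 of 9 markers were tested and all 7 were more than 2-fold higher in PDR, with a median of 2.25 beside 2.08 for Cxcr5. Their summed level was 1724 FPKM in PDR and 390 FPKM in SKYD, and Ms4a1 had 28542 and 3486 reads. For effector T and NK cells, 8 of 10 markers were tested, of which Prf1 and Tbx21 passed only through PDR, and 7 were more than 2-fold higher in PDR, with a median of 1.44 beside 3.34 for Cxcr3 and 2.47 for Cxcr6. Their summed level was 540 FPKM in PDR and 185 FPKM in SKYD, and Tbx21, a transcription factor gene of these cells, had 372 reads in PDR and 14 in SKYD. No marker of these 2 lists was at 0 in either library.

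For immature T cells, the 7 markers, like Ccr9, passed the filter on mean FPKM only through SKYD, so that their differences had to lie on that side. They had between 0 and 0.900 FPKM in PDR and between 2.88 and 206 FPKM in SKYD. Their summed level was 2.42 FPKM in PDR and 270.1 FPKM in SKYD. Rag1, Rag2 and Ptcra had 0 reads in PDR and 637, 2262 and 475 in SKYD. Of 8 markers of T cells in general, all 8 were more than 2-fold higher in SKYD, with a median of -2.38 and a summed level of 184 FPKM in PDR and 1271 FPKM in SKYD. Of 6 markers of plasmacytoid dendritic cells, 5 were tested, 2 of them only through SKYD and 1 only through PDR. Of the 5 tested, 3 were more than 2-fold higher in SKYD. The median was -1.28, or -0.65 with no filter on FPKM and -2.17 with a mean FPKM of at least 5. Sums over the list were 1032 FPKM in PDR and 1110 FPKM in SKYD. Without Ly6d, which B lineage cells also express, the sums were 7.55 FPKM in PDR and 65.0 FPKM in SKYD. Siglech, a defining gene of these cells, had 39 reads in PDR and 964 in SKYD, and Klk1 had 0 and 1067. Ly6d had a difference of -0.03, and Tcf4, with 939 and 662 reads (0.32), and Pacsin1, with 177 and 128, were higher in PDR. The part of each of these cell types in the receptor differences was not tested.

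Markers of other myeloid cells than macrophages are given next. For monocytes, 5 of 6 markers were tested, and sums over the list were 3939 FPKM in PDR and 2357 FPKM in SKYD. The median was 0.43 beside 0.04 for Ccr2, or 0.23 with no filter on FPKM. Of the tested markers, 1 was more than 2-fold higher in PDR and 0 in SKYD. The call was that of Ly6c2, which marks classical monocytes and had 92400 reads in PDR and 35051 in SKYD, a difference of 1.49. F13a1, a coagulation factor gene of monocytes, lay the other way with 3432 and 6684 reads (-0.84), as did Vcan, which was under the filter with 143 and 343 reads. For conventional dendritic cells, 4 of 6 markers were tested, and 1, Cd209a, was more than 2-fold higher in SKYD. The median was -0.42 beside 0.89 for Ccr7. It was -0.14 with no filter on FPKM and -0.64 with a pseudocount of 0.01. The sums were 49.1 and 174 FPKM, or 6.72 and 7.60 FPKM without Cd209a, and Fscn1, a gene of mature dendritic cells that passed the filter only through PDR, had 102 and 43 reads. Of 7 neutrophil markers, 2 passed 2-fold toward PDR and 0 toward SKYD, with a median of 0.40 and sums of 4577 and 3591 FPKM. In all, 5 were higher in PDR and 2 in SKYD, namely Mmp8 (-0.56) and Retnlg (-0.32). Most of both sums came from S100a8 (1911 FPKM in PDR and 1483 in SKYD) and S100a9 (2209 and 1677 FPKM). Of 5 eosinophil markers, 2 were tested and 0 were past 2-fold, with sums of 19.1 and 26.9 FPKM, and Epx, a defining granule gene of these cells, had 0 reads in both libraries. Prg2, another granule gene, had 286 reads in PDR and 487 in SKYD (-0.64), and Il5ra had 363 and 173 (0.86).

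**Figure D5:**
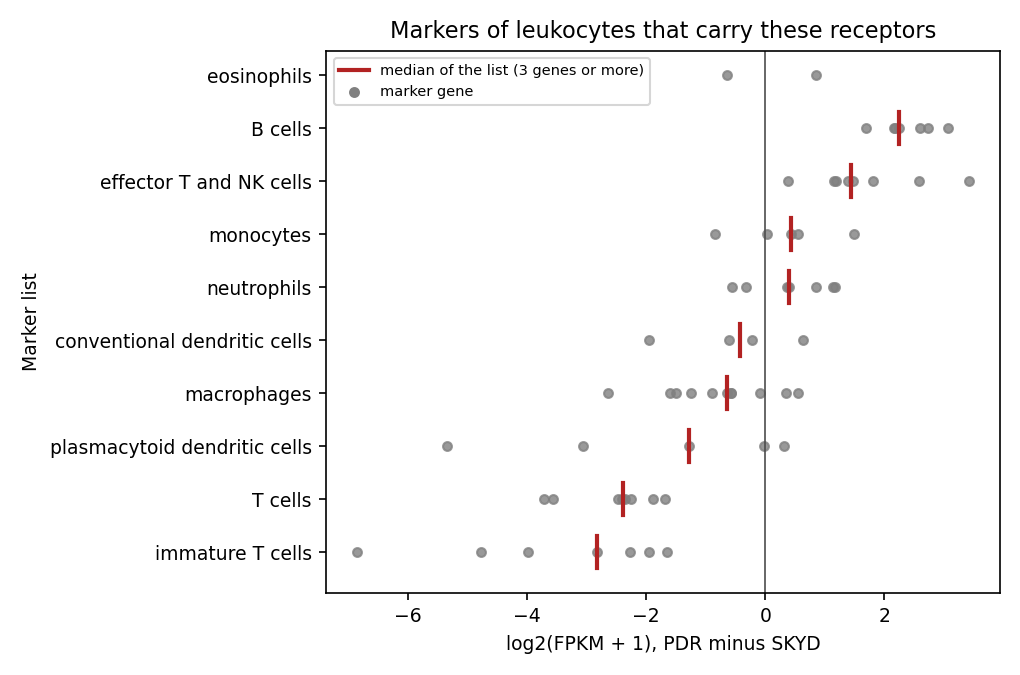
Difference in log2(FPKM + 1), PDR minus SKYD, of marker genes whose mean FPKM reached 1 (grey points) for 10 leukocyte lists, with the median of each list of 3 genes or more as a red bar. B cell and effector T and NK cell markers lie on the PDR side, and T cell and immature T cell markers on the SKYD side; those of immature T cells passed the filter only through SKYD.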

How the data were processed

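RNA of cells sorted as aortic macrophages was sequenced in 1 library of 5 pooled mice per group. The authors filtered reads, aligned them with TopHat 2.0.9 and Bowtie 2.0.6, counted them per gene with HTSeq 0.6.1 and deposited FPKM values with gene positions and lengths. The submitters' processing notes name mm9, whereas the deposited positions are those of GRCm38, since 98.3% of the 54495 genes shared with GENCODE M21 have the same start and end. Neither the strand setting nor the treatment of overlapping genes is given in the sources used here.

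A single read is the smallest step of FPKM times length, taken as the median of the lowest 200 values of each library. This gave whole reads within 0.05 for 100% of genes above 0. FPKM were compared as log2(FPKM + 1) with a minimum mean FPKM of 1, and no test across genes was run. Intervals are exact (Clopper-Pearson) limits on the split of reads, exact Poisson limits for levels and exact binomial limits for shares, all at 95%. Without molecular identifiers, they cover counting error only. The steps were checked on simulated data with counting error alone, which cannot test variation among mice or libraries. Members and gene lists were chosen with earlier results of these data known. A result for 1 further gene is not reported here. Named genes were the members, their ligands, other receptors and genes overlapping or next to members. Of other lists they were the most abundant genes and those past 2-fold. Defining markers, and markers that lay opposite to most of their list, were chosen after their values were seen. Promoter motifs were also chosen after the data were seen. Alternatives were other pseudocounts, filters, scalings, thresholds and gene lengths. Calculations used scipy 1.17.1, pandas 2.3.3 and numpy 2.4.6 under Python 3.11.15, and plots matplotlib 3.10.9.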

Additional observations from a re-analysis of the deposited data

How the results depend on the processing

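Cxcr3, Cxcr5 and Cxcr6 stayed past the threshold toward PDR, and Ccr9 toward SKYD, under all 13 alternatives. No member changed sign under any alternative that gave it a value. For Cx3cr1 these were 12, since it did not reach a mean FPKM of 5. Other filters and thresholds left the difference of each member as it was, and another pseudocount or gene length cannot change its sign. Only changes of scaling or centring could have changed a sign. The number of members past the threshold toward SKYD was 2 with a pseudocount of 0.1, with a pseudocount of 0.01 and after rescaling to TPM, where Cxcr4 joined Ccr9, and 3 at a 1.5-fold threshold, where Ccr1 joined as well and Ccr7 made the number toward PDR 4. Scaling without immunoglobulin and T cell receptor genes moved the median of all tested genes to 0.10, and Ccr7, at 1.01, then passed the threshold toward PDR. The difference of Ccr9 ranged from -5.07 to -3.64 over the alternatives, and that of Cxcr3 from 3.34 to 3.68. Among all genes, 194 were past the threshold toward PDR and 216 toward SKYD at 4-fold, 1574 and 1562 at 1.5-fold, and 464 and 373 with a mean FPKM of at least 5. With protein-coding genes only, 542 were past it toward PDR and 473 toward SKYD. Against 767 and 719 in the analysis as reported, the counts were 922 and 639 when scaled without immunoglobulin and T cell receptor genes. As CPM they were 941 and 747, and after rescaling to TPM they were 904 and 793. With a pseudocount of 0.1 they were 1057 and 1010, and with a pseudocount of 0.01 they were 1096 and 1048. At other thresholds the threshold itself set the change, and with a mean FPKM of at least 5 or protein-coding genes only fewer genes were tested. A lower pseudocount widens every difference between unequal levels, so with the same genes tested those counts could not fall. For the other settings the cause was not tested. The alternative with the longest coding transcript was chosen after seeing the data. No paired analysis was possible because each group has 1 library, and leaving out a replicate was not possible for the same reason. The single pooled libraries limit every difference, and depth limits genes with few reads such as Ccr8 and Ccr10.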

Other observations

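Chemokine receptors act beside adhesion molecules and receptors for lipid signals in leukocyte trafficking, and a list of 15 such genes was chosen after seeing the data. Of the 14 that passed the filter on mean FPKM, 4 passed 2-fold toward PDR and 0 toward SKYD, against 7.38% and 6.91% of all tested genes, and the median difference was 0.51. Gpr18, a receptor of lymphocytes, had 2806 reads in PDR and 1052 in SKYD, a difference of 1.47 (95% CI 1.37 to 1.57). Itgb7, the integrin chain that acts with CCR9 in homing to the gut, had 9664 and 3759 reads, a difference of 1.44 (95% CI 1.38 to 1.49), opposite in direction to Ccr9. S1pr2, which confines B cells to germinal centres and passed the filter only through PDR, had 700 and 172 reads, a difference of 1.35 (95% CI 1.21 to 1.47). Gpr183, an oxysterol receptor that places B cells within follicles together with CXCR5, had 2071 and 1000 reads, a difference of 1.09 (95% CI 0.98 to 1.19), in the same direction as Cxcr5. Integrin genes with smaller differences lay on both sides, with -0.26 (95% CI -0.30 to -0.23) for Itgb2, 0.27 (95% CI 0.17 to 0.37) for its partner chain Itgal, 0.47 for Itgb1 and 0.64 for Itga4. The difference was -0.34 (95% CI -0.38 to -0.30) for the selectin ligand gene Selplg.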
